A study of Mus musculus with 2 samples.

Results

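The genes described here are those of 3 clusters, the pairs of Mir15a with Mir16-1, Mir15b with Mir16-2 and Mir195a with Mir497, a set of microRNA (miRNA) genes that yield mature miRNAs that share a seed. They were chosen by symbol, through the Ensembl identifiers that GENCODE release M21 pairs with Mir15a, Mir16-1, Mir15b, Mir16-2, Mir195a and Mir497. All 6 were rows of the count files, out of 2202 miRNA genes in all. Short RNA was sequenced from adrenal glands of male mice of the hybrid strain B6CASTF1/J, 10 days old, in 2 libraries. The labels number the libraries as biological replicates 1 and 2, name a different male for each under a shared donor record, and give no treatment, no allele and no second condition. Whether the glands of several animals were pooled is not stated.

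A miRNA is cut from a hairpin transcript, and either arm of the hairpin, named 5p and 3p, can become the mature strand that guides Argonaute to messenger RNAs. Targets are read mainly through the seed, bases 2 to 8 of the mature strand. The miR-15/16 family is known for restraining the cell cycle and favouring apoptosis, through targets such as cyclin D1, cyclin E1, Wee1 and Bcl2, and its Dleu2 locus is often lost in chronic lymphocytic leukaemia. Mir195a and Mir497 are known to rise after birth in heart muscle as its cells stop dividing. In the adrenal cortex, miR-195 and miR-497 are known for low levels in carcinoma.

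The 5p arms are printed because they carry the seed that unites the genes and the bases by which reads of one gene are told from those of another. Capitals mark the seed, and the sequences are from RefSeq on GRCm38.p6, in which all 6 genes had an entry with both mature arms.
miR-15a-5p (Mir15a): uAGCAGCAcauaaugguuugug
miR-15b-5p (Mir15b): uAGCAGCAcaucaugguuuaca
miR-16-5p (Mir16-1 and Mir16-2): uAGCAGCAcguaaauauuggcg
miR-195a-5p (Mir195a): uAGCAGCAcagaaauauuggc
miR-497a-5p (Mir497): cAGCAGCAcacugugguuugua
miR-322-5p (Mir322, a family member on chromosome X): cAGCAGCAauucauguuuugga
Beyond the seed the arms differed. Position by position from the 5′ end, miR-15a-5p was identical to miR-15b-5p at 18 of 22 positions and to miR-497a-5p at 17 of 22. For miR-16-5p and miR-195a-5p the same count was 19 of 21, whereas miR-16-5p and miR-497a-5p were identical at 11 of 22 positions. The longest run of bases that 2 different 5p arms of the clusters shared was 11, between miR-15a-5p and miR-15b-5p.

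The 3p arms had no seed in common, so the shared seed is a property of the 5p arms only. The 3p arms of the Mir16 genes are shown because, unlike the 5p arm, they tell these genes apart.
miR-16-1-3p (Mir16-1): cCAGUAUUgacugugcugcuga
miR-16-2-3p (Mir16-2): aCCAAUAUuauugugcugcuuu
These were identical at 12 of 22 positions.

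The hairpins of Mir16-1 and Mir16-2 hold the same 5p arm, and the annotated arms are in capitals below.
Mir16-1: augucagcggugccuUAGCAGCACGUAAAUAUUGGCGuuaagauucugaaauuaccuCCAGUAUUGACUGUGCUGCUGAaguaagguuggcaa
Mir16-2: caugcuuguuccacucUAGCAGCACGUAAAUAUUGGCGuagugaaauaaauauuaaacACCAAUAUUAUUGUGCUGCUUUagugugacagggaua
The longest run common to both hairpins was 23 bases, the whole 5p arm and 1 base more. A read of the 5p arm alone therefore maps to both loci. The files keep reads that map to several places in a row of their own and assign them to no gene. Of all reads, unmapped ones included, that row held 27.5% in replicate 1 and 25.9% in replicate 2. How much of it was miR-16-5p is not given in the files. The counts of Mir16-1 and Mir16-2 thus leave out reads within the 23 shared bases, and their levels are not levels of miR-16-5p. A 5p read that reaches past these bases can map to 1 locus. Which arm the assigned reads came from was not tested. Among 1005 RefSeq hairpins searched, no other held a mature arm of the remaining 4 genes letter for letter. The hairpin of Mir15a was not among those searched. Over the whole table, 95 of 1018 genes with a RefSeq mature sequence had one that stands in another hairpin too. Of these, 52.6% reached 1 CPM in both libraries, against 37.1% of the 923 without such a copy. Among the genes that reached it, the median level ran the other way, 68.5 CPM with a copy and 91.4 CPM without.

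Each cluster is a pair of hairpins on the same strand, close together. By GENCODE M21 on mm10, Mir15a (ENSMUSG00000093007.1, 84 bases) lies at chr14:61632027-61632110 on the minus strand, and Mir16-1 (ENSMUSG00000092995.1, 93 bases) follows it at chr14:61631880-61631972, 54 bases away. Both lie within Dleu2, a long non-coding RNA gene. All 8 Dleu2 transcripts over Mir15a have an intron there, and of 9 over Mir16-1, 8 have an intron and 1 has an exon. Mir15b (ENSMUSG00000065580.2, 64 bases, chr3:69009772-69009835, plus strand) and Mir16-2 (ENSMUSG00000065606.1, 95 bases, chr3:69009902-69009996) are 66 bases apart. Both lie in introns of all 5 overlapping transcripts of Smc4, which encodes a condensin subunit needed to compact chromosomes for division. Mir497 (ENSMUSG00000105220.1, 84 bases, chr11:70234717-70234800, plus strand) and Mir195a (ENSMUSG00000065411.2, 94 bases, chr11:70235042-70235135) are 241 bases apart, and the annotation has no host gene over them on their strand.

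**Figure D1:**
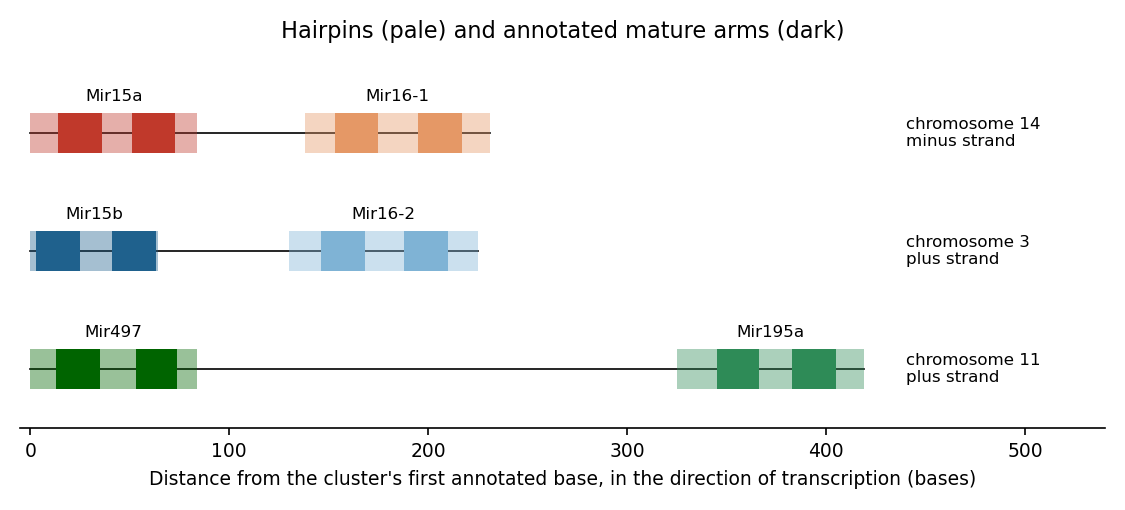
Map of the 3 clusters, with the distance from the first annotated base of the cluster in bases on the x axis. Pale boxes are annotated hairpins and dark boxes the mature arms. The partners are 54, 66 and 241 bases apart.

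Levels are counts on the gene's own strand in CPM, the counts scaled to a fixed total over all miRNA genes. The own-strand totals were 2843734 reads in replicate 1 and 3080062 in replicate 2, so a count of 0 allows up to 1.05 and 0.974 CPM, for counting error only, as reads carry no molecular identifiers here. The libraries differed far beyond sampling noise, with a chi-square of 793 per degree of freedom over 433 genes, and were counted as 2 samples. The gland was read whole, so a lower level can come from fewer cells of a type or from less RNA per cell, which cannot be told apart. Of the markers looked at, Mir375 of neuroendocrine cells, the kind that make up the adrenal medulla, had 34144 and 34383 CPM and was not called different between the libraries. The other 3 genes of that list, Mir7b (5272 and 3120 CPM), Mir7-1 and Mir7-2, were called lower in replicate 2 by the test described below. Several markers of other cells differed between the libraries, and the sums of others less so. Mir122 of liver had 29424 CPM in replicate 1 and 97850 in replicate 2, and Mir126a of endothelium 84263 and 45250. The 9 striated muscle genes (4 detected, Mir133a-2 at 0) had a sum of 929 and 3337, almost wholly from Mir206 (919 and 3305 CPM). The 3 red cell genes, all detected, summed to 719.8 and 321.7, although Mir486 among them was higher in replicate 2. The 7 epithelial genes, all detected, summed to 1321 and 1221 CPM. This sum rests mostly on Mir203 (1139 and 824 CPM), called lower in replicate 2, while 5 of the 7 were called higher. For scale, 28.6% of all tested genes were called higher and 30.4% lower. The 5 genes of fibroblasts and smooth muscle (4 detected, Mir199a-1 at 0) summed to 40292 and 34060 CPM. Of these, Mir143 was called lower, but Mir214 and Mir145a higher. The 4 of leukocytes, all detected, summed to 1044 and 1547, with Mir142 and Mir223 not called. Mir150 (292 and 786 CPM) and Mir155 were called higher. The 8 neuronal genes (2 detected, Mir9-1, Mir9-2, Mir124a-1 and Mir124a-3 at 0) summed to 806.7 and 459.7 CPM. The detected ones, Mir137 and Mir153, were called lower. Reads that map to several places were assigned to no gene, so a marker listed at 0 or not detected was not shown to be absent. Which marker genes lose reads in this way was not tested. The part of these cells in the differences described below was not tested.

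In assigned reads the genes of the clusters were moderately abundant, at ranks 58 to 156 of 2202 by mean level. Together they had 21716 reads in replicate 1 and 18319 in replicate 2. These made up 0.764% of all counts in replicate 1 (95% Wilson interval 0.754 to 0.774) and 0.595% in replicate 2 (0.586 to 0.603). The mean share was 0.679% ± 0.119 (SD, n = 2). Ranks and shares leave out Mir16 reads that map to both loci, whose amount was not measured.

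Mir15a, the first hairpin of the Dleu2 cluster, had the highest mean of the 6. Its level was 3433 CPM in replicate 1 and 1025 CPM in replicate 2, a mean of 2229 ± 1703 CPM (SD, n = 2). This is the widest spread of the set: it ranked at place 1 of the 6 in replicate 1 and at place 3 in replicate 2. Its partner Mir16-1, counted without reads that map to both Mir16 loci, had 669.5 and 724.3 CPM, a mean of 696.9 ± 38.7 CPM. Mir15a was thus 3.35-fold higher in replicate 1 than in replicate 2, while the values of Mir16-1 lay 1.08-fold apart.

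Mir15b, the first hairpin of the Smc4 cluster, differed in the direction opposite to Mir15a. It had 1092 CPM in replicate 1 and 2179 CPM in replicate 2, where it was the highest of the 6, with a mean of 1635 ± 769 CPM (SD, n = 2). Mir16-2, counted without reads that map to both Mir16 loci, had 231.7 and 236.0 CPM, a mean of 233.9 ± 3.04 CPM. In these counts Mir16-2 was the lowest of the 6 in both libraries. Mir16-2 also had the smallest spread, 1.30% of its mean, against 76.4% for Mir15a.

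On chromosome 11 the partners differed between the libraries in opposite directions. Mir497 had 1467 CPM in replicate 1 and 713.0 CPM in replicate 2, a mean of 1090 ± 533 CPM (SD, n = 2). Mir195a had 743.7 and 1071 CPM, a mean of 907.2 ± 231.2 CPM. Mir497 was above Mir195a in replicate 1 and below it in replicate 2.

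By mean level the order was Mir15a, Mir15b, Mir497, Mir195a, Mir16-1 and Mir16-2, and it was the same per 100 bases of hairpin. The single libraries gave other orders. In replicate 1 it ran Mir15a, Mir497, Mir15b, Mir195a, Mir16-1, Mir16-2, and in replicate 2 it ran Mir15b, Mir195a, Mir15a, Mir16-1, Mir497, Mir16-2. The ranges of Mir15a, Mir15b and Mir497 over the 2 libraries overlapped each other, as did those of Mir195a with Mir15a and Mir497, and those of Mir497 and Mir16-1, so these neighbours were not separated beyond their spread. Mir16-1 lay below Mir195a, Mir15b and Mir15a without overlap, and Mir16-2 lay below the other 5. Both places are those of counts without Mir16 reads that map to both loci, whose amount was not measured.

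**Figure D2:**
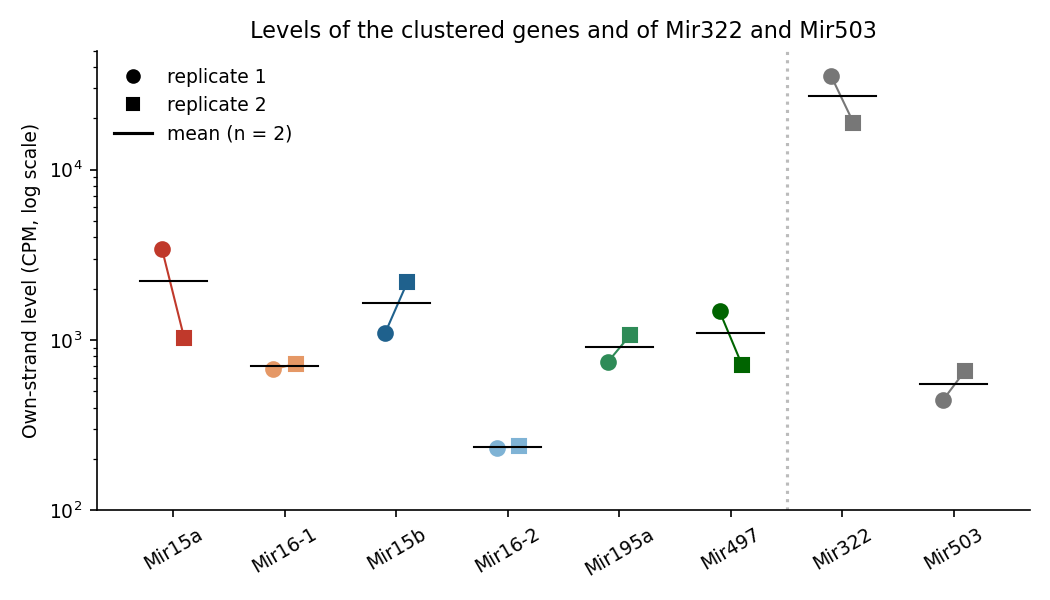
Own-strand level in CPM on a log axis for the 6 clustered genes and, right of the dotted line, for Mir322 and Mir503. Circles are replicate 1, squares replicate 2 and black bars the mean (n = 2). Mir15a and Mir497 are lower in replicate 2, Mir15b and Mir195a higher, and Mir16-1 and Mir16-2 nearly level.

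The composition of the set differed between the libraries. Of all reads of the 6 genes, Mir15a held 45.0% in replicate 1 and 17.2% in replicate 2. Mir15b held 14.3% and 36.6%, and Mir195a 9.74% and 18.0%. Mir497 held 19.2% and 12.0%. The Mir16 genes, without reads that map to both loci, held the remainder, with Mir16-1 at 8.77% and 12.2% and Mir16-2 at 3.03% and 3.97%.

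Partners of a cluster can be set against each other within a library, and this ratio does not depend on the library total. The counts of Mir16-1 and Mir16-2 leave out reads of their shared 5p arm that map to both loci. Ratios with a Mir16 gene therefore compare assigned reads only, not the whole output of the hairpins. Mir15a had 9762 reads and Mir16-1 1904 in replicate 1, so Mir15a held 83.7% of the pair (exact 95% interval 83.0 to 84.3). In replicate 2 they had 3157 and 2231 reads, and Mir15a held 58.6% (57.3 to 59.9). In these counts Mir15a led in both libraries, 5.13-fold and 1.42-fold. The intervals cover counting error only and lie far apart.

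Mir15b also led Mir16-2, counted without reads that map to both Mir16 loci, in both libraries, 4.71-fold and 9.23-fold. It had 3104 reads against 659 in replicate 1, 82.5% of the pair (81.2 to 83.7), and 6710 against 727 in replicate 2, 90.2% (89.5 to 90.9). Mir195a and Mir497 changed places, with 2115 reads of Mir195a against 4172 of Mir497 in replicate 1, or 33.6% (32.5 to 34.8), and 3298 against 2196 in replicate 2, or 60.0% (58.7 to 61.3). On the log2 scale, with 0.5 counts added to each gene, the mean ratio was 1.43 ± 1.31 (SD, n = 2) for Mir15a over Mir16-1, 2.72 ± 0.69 for Mir15b over Mir16-2 and -0.20 ± 1.11 for Mir195a over Mir497. The last had no direction beyond its spread. Summed by cluster, the level was 2926 ± 1664 CPM on chromosome 14, 1869 ± 772 CPM on chromosome 3 and 1997 ± 302 CPM on chromosome 11, which did not separate the clusters. The sums on chromosomes 14 and 3 leave out reads of the shared Mir16 arm that map to both loci.

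**Figure D3:**
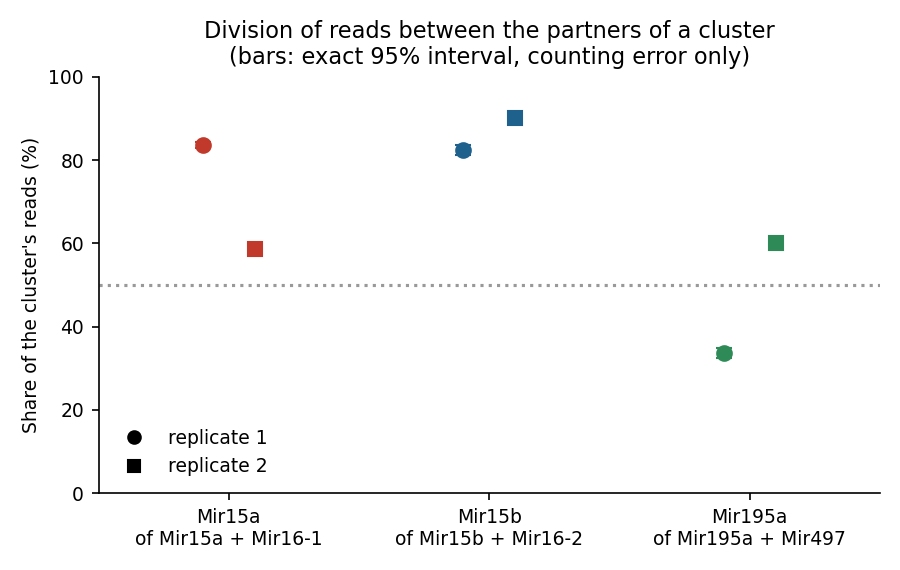
Share of a cluster's reads held by the first-named gene, in percent, for Mir15a of Mir15a and Mir16-1, Mir15b of Mir15b and Mir16-2, and Mir195a of Mir195a and Mir497. Circles are replicate 1, squares replicate 2, bars the exact 95% interval and the dotted line an even division, which the pair on chromosome 11 crosses.

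Difference between the libraries was measured for every gene as the log2 ratio of replicate 2 over replicate 1, with 0.5 counts added. An exact two-sided binomial test set it against counting error, with Benjamini-Hochberg adjustment over 444 genes that had at least 10 counts. The test compares these 2 libraries, not conditions, and has no replicate check. It called 5 of the 6 clustered genes at an adjusted p under 0.05, and 59.0% of all genes tested. Among the 138 genes that averaged 1000 counts or more, 127 (92.0%) were called. The 5 called genes are of that depth, while Mir16-2, with 659 and 727 reads, is below it.

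Mir15b (0.997 on the log2 scale), Mir195a (0.53) and Mir16-1 (0.11) were called higher in replicate 2, as were 28.6% of all tested genes. Mir15a (-1.74) and Mir497 (-1.04) were called lower, as were 30.4% of all. Mir16-2 had a log2 ratio of 0.03 and an adjusted p of 0.819 in the exact binomial test, and its sign turned with TMM factors (-0.04). Mir16-1 had an adjusted p of 0.0211 in the exact binomial test, and the call was lost with TMM factors (0.378). The median log2 ratio of the 6 genes was 0.07, the same as the median of all tested genes at 0.07. The median absolute ratio was 0.76 for the 6 and 0.56 for all tested genes, of which 77.7% lay within 2-fold, as did 4 of the 6.

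Against the spread between the libraries, none of the 6 was called. The exact negative binomial test of edgeR, at a common coefficient of variation of 0.394, gave an adjusted p of 0.721 for Mir15a and of 1 for the other 5. It called 2 genes, or 0.450% of those tested. At an unadjusted p under 0.05 it passed 24 genes (5.41%), of which Mir15a, at 0.0325, was the 1 clustered gene. This test takes its spread from the very libraries it compares, which limits its calls. Of the 138 genes that averaged 1000 counts or more, 3 had a log2 ratio as low as that of Mir15a or lower, Mir15a included, and 12 one as high as that of Mir15b or higher, Mir15b included.

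**Figure D4:**
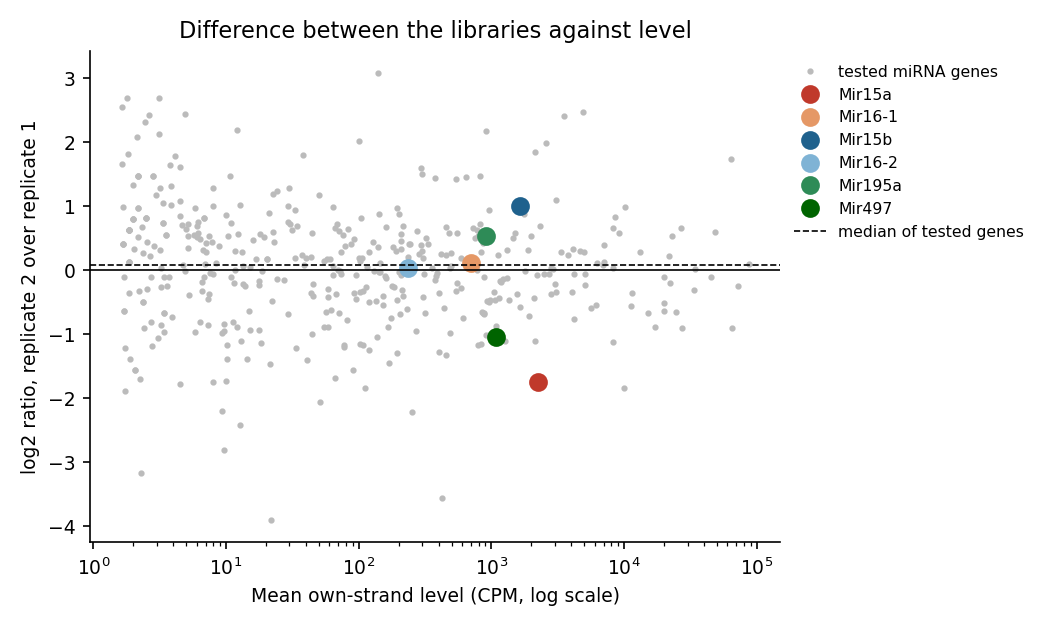
log2 ratio of replicate 2 over replicate 1 against mean own-strand level in CPM on a log axis, for 444 tested genes (grey) and the 6 clustered genes (coloured). The dashed line is the median of tested genes at 0.07. Mir15a lies at -1.74, Mir15b at 0.997, and Mir16-1 and Mir16-2 lie near 0.

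Strand decided whether Mir497 was seen at all. Mir497b (ENSMUSG00000070109.2) is annotated on the minus strand at chr11:70234692-70234816 and covers the whole hairpin of Mir497. Its annotated mature miRNA has another seed, in capitals, and is shown to set it apart from the family.
miR-497b (Mir497b): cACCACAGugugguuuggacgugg
On its own strand Mir497 had 4172 and 2196 reads, and it was listed at 0 in both libraries when strand was ignored. On its own strand Mir497b had 1 read in replicate 1 and 0 in replicate 2. The reads of the overlap thus lay on the strand of Mir497 in nearly all cases. The other 5 genes had the same counts with and without strand and 0 reads on the opposite strand in both libraries.

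In all, 11 genes of the table had a RefSeq mature miRNA with the seed of miR-15a-5p, and 7 of them had counts. Besides the 6 clustered genes, Mir322 had counts, at 35458 CPM in replicate 1 and 18855 CPM in replicate 2. It was far above the clustered genes in both, and held 82.3% of the counts of the seed family in replicate 1 and 76.0% in replicate 2. The clustered genes held the remaining 17.7% and 24.0%, a share that leaves out miR-16-5p reads mapped to both its loci. With Mir322 the seed family made up 4.31% of all counts in replicate 1 and 2.48% in replicate 2. Mir195b, Mir6342, Mir6353 and Mir6419 were listed at 0 in both libraries. Mir503, the neighbour of Mir322, differs from the family in its seed and had 440.6 and 658.4 CPM, between Mir16-1 and Mir16-2 in both libraries.

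The genes nearest in level, by distance in log2(CPM + 1) over the 2 libraries, differed from member to member. Mir20a, of the proliferation-linked Mir17 cluster, was nearest to Mir15a, at a log2 distance of 0.46 (2908 and 1349 CPM), followed by Mir106b at 0.72. Mir676 was nearest to Mir15b at 0.18, and Mir872 to Mir497 at 0.13. Mir196b was nearest to Mir195a at 0.12, Mir296 to Mir16-1 at 0.06 and Mir155 to Mir16-2 at 0.13. The second nearest were Mir342 for Mir15b, Mir182 for Mir497, Mir672 for Mir195a, Mir467d for Mir16-1 and Mir370 for Mir16-2. With 2 libraries such likeness describes levels only.

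Other miRNAs known to restrain growth had no common direction. Of 17 listed genes all were detected in both libraries, 6 were called higher in replicate 2 and 8 lower, against 28.6% and 30.4% of all tested genes. Their median log2 ratio was 0.44, against 0.07 over all. The 2 most abundant were Mir143, at 37387 and 30258 CPM, and Mir322. The 15 genes of the proliferation-linked Mir17 cluster and its paralogs had 2 called higher and 7 lower among 14 tested, with a median of -0.32, to be read against the same shares of all tested genes, 28.6% and 30.4%. Mir17 led at 6768 and 4475 CPM, followed by Mir93 at 5526 and 4691 CPM. Of 17 genes linked to adrenocortical tumours, among them Mir195a and Mir497, 7 were called higher and 7 lower, beside 28.6% and 30.4% of all tested genes, with a median of 0.17. They were led by Mir375 and by Mir139, at 20800 and 32672 CPM.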

How the data were processed

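The deposited values are raw read counts for each miRNA gene, made by the authors on mm10 with GENCODE M21, per the descriptions deposited with them. What aligned and counted the reads is not given in the sources used here. From their values, the 3 columns hold counts without strand, on the own strand and on the opposite strand. A further 4 rows, for reads assigned to no gene, stayed out of totals. Own-strand counts (column 3) were the main values and column 2 a check. CPM used all gene rows, scaled to 1000000. Own-strand totals were 2843734 and 3080062. No quasi-likelihood test was possible with 1 group, so an exact two-sided binomial test was used. It was tried on simulated counts with planted changes and counting error only. That trial cannot show how the test fits libraries that differ beyond counting error. P-values measure the difference between these 2 libraries only. Alternatives were other filters, pseudocounts, totals (TMM, DESeq2, without Mir122), column 2, single replicates and a negative binomial test.

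Named genes were the 6 members, genes sharing their seed or overlapping them, the 2 nearest in level to each, Mir122, and the 2 most abundant of each list. Marker genes are named from fixed lists. Members, lists and alternatives were chosen with earlier results of these data known. RefSeq (GRCm38.p6) matched 1032 of 2202 symbols. Tools were R 4.3.3, edgeR 4.0.16, DESeq2 1.42.0 (size factors), Python 3.11.15, numpy 2.4.6, pandas 2.3.3, scipy 1.17.1 and matplotlib 3.10.9.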

Additional observations from a re-analysis of the deposited data

Results flagged for a closer look

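Signal outside the counts used lay in reads with several mapping places. Of all reads, unmapped ones included, these made up 27.5% in replicate 1 and 25.9% in replicate 2. The shared 5p arm of Mir16-1 and Mir16-2 is of this kind by its sequence, and its amount was not measured. The opposite-strand column of Mir497b held 4172 reads in replicate 1 and 2196 in replicate 2, equal to the own-strand counts of Mir497.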

How the results depend on the processing

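Of 112 alternatives, 88 kept direction and call or stayed within the spread. Part of these could not have come out otherwise. Member levels and shares in single replicates stay within the SD of 2 libraries by construction. The pseudocounts, at most 5 counts, are small beside the members' counts. Called members numbered 3 without strand, where Mir497 was listed at 0 and Mir16-1 was not called, and 0 in the negative binomial test (edgeR, exact), against 5. That test called 2 genes in all, against 262 by the binomial test. The ratio of Mir16-2 turned sign with TMM factors (-0.038), without strand (-0.049) and in the negative binomial fit (-0.038). The ratio of Mir195a over Mir497 lay between -0.98 and 0.59 in single replicates. It had no value without strand, as was so for the library ratio of Mir497. The share of the members lay between 0.595% and 0.764% in single replicates, which stay within the SD by construction. Dividing by all reads of the file changed the scale of every level. The lowest count of a member was 659, of Mir16-2 in replicate 1, and whether depth limits its call was not tested.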
